A study of Homo sapiens with 4 samples.

Results

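The nuclear hormone receptors are transcription factors that bind small lipid-soluble ligands such as steroids, thyroid hormone, retinoids, vitamin D, oxysterols and fatty acids, and that bind DNA through a zinc-finger domain. Many of them form heterodimers with a retinoid X receptor, steroid receptors are held by chaperones until ligand binds, and bound receptors exchange corepressors for coactivators at their target genes. Orphan receptors have no established hormone, and a few of them, the ROR and REV-ERB receptors, belong to the circadian clock. In breast cancer the estrogen and progesterone receptors set the clinical class of the tumour, and triple-negative tumours lack both of them together with high ERBB2.

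The receptors were taken by gene symbol, and 46 of the 57815 genes in the expression table were members. Expression was measured by RNA-seq in untreated cultures of the human triple-negative breast cancer cell line MDA-MB-231 (2 libraries) and of LM2-4175 (2 libraries), a derivative of MDA-MB-231 isolated for its metastasis to the lung and called LM2 from here on. Both lines grew in the same serum-containing medium, so hormones of the serum were present in each. The authors pooled the libraries of a cell line into a single FPKM value (fragments mapped to a gene, scaled by its transcript length and by the fragments mapped in all) with a lower and an upper bound. No value per library was in the table, so no difference given here has a test or a replicate check, and the spread between cultures is unknown. The depth of the libraries was not in the table either, and the read numbers that the study lists were not used here.

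A change is the log2 ratio of FPKM + 1 in LM2 over FPKM + 1 in MDA-MB-231, which understates the change of genes with low values. A gene was tested where its mean FPKM was at least 0.5 and both cell lines had the status OK, and a call, higher or lower in LM2, needed FPKM + 1 to differ at least 1.5-fold with no overlap of the authors' bounds. The word tested refers to this comparison of pooled libraries. The level of confidence of the bounds and whether they cover the spread between libraries were not given in the sources used here. In bulk RNA, fewer cells that express a gene and less RNA per cell cannot be told apart.

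Of the 46 receptors, 28 were tested and 3 were called higher in LM2, namely the mineralocorticoid receptor NR3C2 and the retinoic acid receptor-related orphan receptors RORA and RORB. No receptor was called lower. Over all 13911 genes tested, 4.67% were called higher, 4.61% lower and 9.27% in either direction. The 3 receptors made up 10.7% of those tested, a share near the 9.27% over all genes, so the number of calls did not set the receptors apart.

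The lines fitted their triple-negative label at the RNA level for the hormone receptors. The estrogen receptor ESR1 had 0.0331 FPKM in MDA-MB-231 and 0.0186 FPKM in LM2, with upper bounds of 0.384 and 0.290. The progesterone receptor PGR had 0.0124 and 0.00438 FPKM. ERBB2 had 35.0 FPKM in MDA-MB-231 and 22.8 FPKM in LM2, and its bounds overlapped. The mesenchymal marker VIM stood at 1355 and 1768 FPKM, and the epithelial cadherin CDH1 at 0.851 and 0.366 FPKM. Among 7 of 9 receptor-state and epithelial or mesenchymal markers tested, the epithelial genes KRT19, KRT18 and EPCAM were called lower in LM2 and none was called higher. KRT19 had 250 and 36.3 FPKM, KRT18 had 448.5 and 181 FPKM, and EPCAM had 12.3 and 4.93 FPKM, so not all epithelial genes were near 0. Other genes, mostly KRT8, shared 20.0% of the exon bases of KRT18. Of 7 white blood cell markers, 3 were tested and none was called, and their summed level was 112 FPKM in MDA-MB-231 and 182 FPKM in LM2, most of it CD68, for which other genes share 85.6% of the exon bases. The macrophage receptor CSF1R had 2.92 FPKM in MDA-MB-231 and 0.79 FPKM in LM2, a change of -1.13 with bounds that overlapped. PTPRC, which all white blood cells carry, had 0.0767 and 0.0263 FPKM, and the T cell marker CD3E was listed at 0 in both.

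The promoters of the 3 receptors called higher are given here, since the calls turn on these genes and their starts differ in composition. The sequences are those of RefSeq (GRCh38.p14), found once each in GRCh37, whose coordinates are given. Each line holds the 250 bases before the start in the direction of transcription, 5′ to 3′, with matches to the searched motifs in capitals.

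NR3C2, chr4:149363567-149363816, minus strand: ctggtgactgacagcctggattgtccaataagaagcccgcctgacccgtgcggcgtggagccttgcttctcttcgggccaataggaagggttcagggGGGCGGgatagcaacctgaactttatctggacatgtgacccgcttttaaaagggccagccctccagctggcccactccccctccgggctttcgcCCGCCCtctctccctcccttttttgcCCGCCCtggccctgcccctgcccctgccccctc

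RORA, chr15:60919730-60919979, minus strand: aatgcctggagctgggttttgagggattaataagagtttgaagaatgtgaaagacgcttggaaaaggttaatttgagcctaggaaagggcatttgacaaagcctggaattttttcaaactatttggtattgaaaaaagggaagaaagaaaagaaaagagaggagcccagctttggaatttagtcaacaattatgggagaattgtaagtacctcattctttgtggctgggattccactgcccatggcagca

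RORB, chr9:77112001-77112250, plus strand: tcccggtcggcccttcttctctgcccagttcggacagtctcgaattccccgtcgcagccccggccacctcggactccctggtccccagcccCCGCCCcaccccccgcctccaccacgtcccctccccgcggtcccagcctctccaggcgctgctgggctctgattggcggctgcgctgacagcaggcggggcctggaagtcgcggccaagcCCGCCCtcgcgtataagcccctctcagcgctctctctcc

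The capitals mark the GC box GGGCGG on either strand. With the 50 bases after the start included, NR3C2 had 65.7% G and C, 16 CpG dinucleotides and 3 GC boxes, which began at positions -153, -59 and -33 from the start. RORB had 69.0% G and C, 24 CpG dinucleotides and GC boxes that began at positions -159 and -39. RORA had 42.0% G and C, 1 CpG dinucleotide and none of the motifs, and its RefSeq entry lay well inside the annotated span of a gene that has several starts. Over 35116 promoters of 300 bases, the medians were 58.7% G and C and 14 CpG dinucleotides. Of the 46 receptors, 41 had an entry.

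The searched motifs are given as counts, with no test. The nuclear receptor half-site AGGTCA, a part of a full element, was found in 3 of the 24 tested receptors with an entry. It was found in 13.8% of all promoters, both strands counted. The steroid receptor half-site AGAACA was found in 2 of the 24 and in 14.8% of all promoters. Full receptor elements were not searched. The E-box CACGTG, which clock factors bind, was found in 2 of the 24 and in 7.26% of all promoters, with a pair of copies in NR2F2. GC boxes were found in 15 of the 24 and in 45% of all promoters. TATAAA was in none of the 24 and in 11.5% of all promoters, and the cyclic AMP response element TGACGTCA was in 1 of the 24 and in 1.85% of all promoters.

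**Figure D1:**
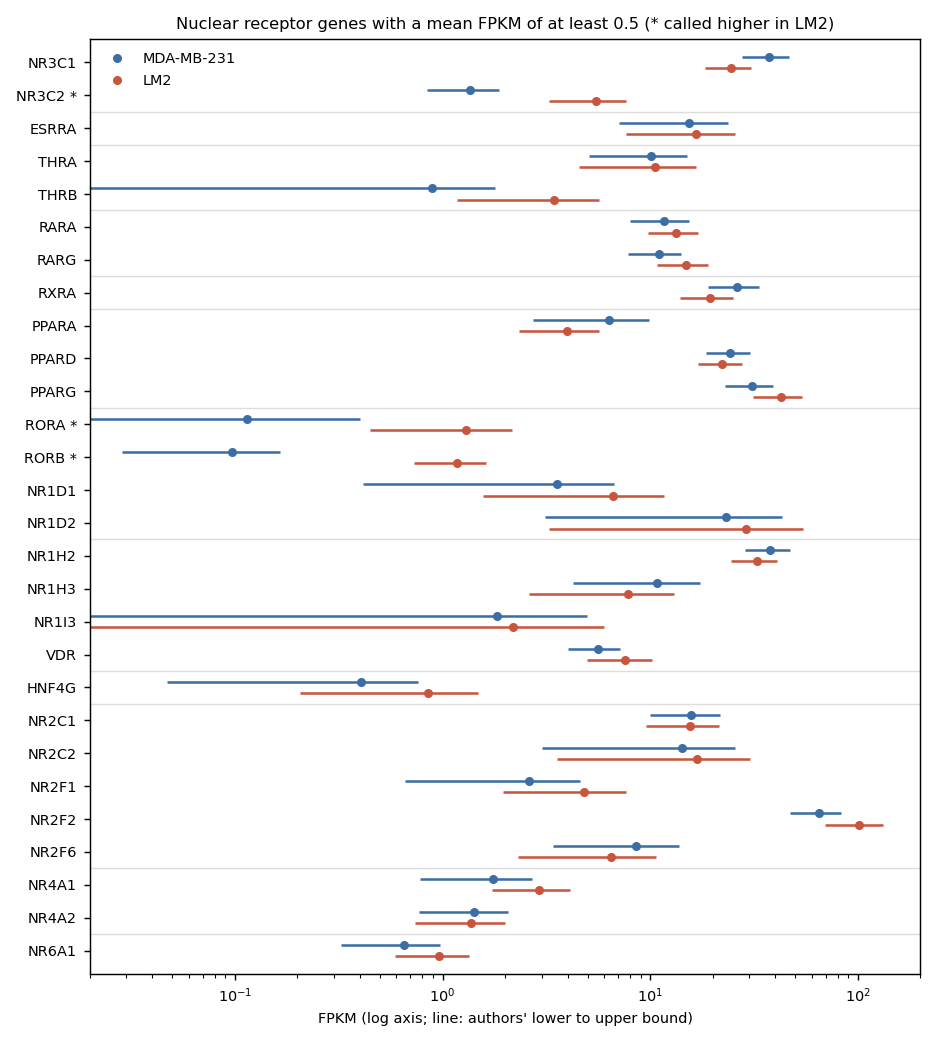
Level of each tested receptor in FPKM on a log axis that begins above 0, with lines from the authors' lower to upper bound (ending at the axis where it is lower), for MDA-MB-231 and LM2 (1 pooled value each). NR2F2 was highest in both cell lines, and the bounds of NR3C2, RORA and RORB did not overlap.

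The receptors of rank 1 to 7 by FPKM were the same in both cell lines, but their order below NR2F2 differed. NR2F2 (COUP-TFII), an orphan receptor of vessel and mesenchyme development, was highest with 65.1 FPKM (bounds 47.3 to 82.9) in MDA-MB-231 and 101 FPKM (bounds 69.7 to 132) in LM2. In MDA-MB-231 the next levels were 37.7 FPKM for the oxysterol receptor NR1H2, 37.2 FPKM for the glucocorticoid receptor NR3C1 and 30.9 FPKM for PPARG, and the bounds of these 3 overlapped with each other but not with those of NR2F2. In LM2 PPARG followed NR2F2 with 42.5 FPKM, before NR1H2 with 32.7 FPKM, NR1D2 with 28.9 FPKM and NR3C1 with 24.5 FPKM. The bounds of these 4 overlapped from one to the next and lay below those of NR2F2. At least 10 FPKM was reached by 14 receptors in MDA-MB-231 and by 13 in LM2, and the 13 that reached it in both changed by between -0.58 and 0.62 on the log2 scale. None of the 13 was called, against 7.54% of the 7544 genes with a mean of at least 10 FPKM.

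NR3C2 was the receptor with the largest change among those tested. It is encoded on chromosome 4 (GRCh37, 148999913 to 149365850, minus strand, ENSG00000151623) and binds aldosterone and cortisol. Its level was 1.36 FPKM (bounds 0.841 to 1.87) in MDA-MB-231 and 5.46 FPKM (bounds 3.27 to 7.64) in LM2, 4.02 times as high, with a log2 change of 1.45. The lower bound in LM2 stood above the upper bound in MDA-MB-231, and no exon of another gene overlapped its exons.

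The related glucocorticoid receptor NR3C1, which binds cortisol and synthetic glucocorticoids, had a lower value in LM2. Its level was 37.2 FPKM (bounds 27.7 to 46.6) in MDA-MB-231 and 24.5 FPKM (bounds 18.4 to 30.6) in LM2, a change of -0.58, just under the fold of 1.5 (0.585 on the log2 scale), and its bounds overlapped. NR3C1 was thus still the more abundant of the pair in both cell lines. In MDA-MB-231 the ratio of NR3C1 to NR3C2 was 27.4, and in LM2 it was 4.48. When each gene was set to its opposite bounds, the ratio spanned 14.8 to 55.4 for MDA-MB-231 but 2.41 to 9.33 for LM2, spans that did not overlap.

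The other steroid receptors were close to 0. ESR2, the second estrogen receptor, had 0.0887 FPKM in MDA-MB-231 and 0.155 FPKM in LM2, with bounds that began at 0. Of the estrogen-related receptors, orphan regulators of mitochondrial genes, ESRRA was not called with 15.4 and 16.6 FPKM, while ESRRG had 0.0492 and 0.201 FPKM and ESRRB was under 0.1 FPKM in both.

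RORA and RORB were called higher from levels near 0. Both activate genes through ROR elements, which the REV-ERB repressors also bind. RORA (chromosome 15, 60780483 to 61521501, minus strand, ENSG00000069667) had 0.115 FPKM (bounds 0 to 0.401) in MDA-MB-231 and 1.30 FPKM (bounds 0.450 to 2.15) in LM2, a change of 1.05. RORB (chromosome 9, 77112251 to 77308093, plus strand, ENSG00000198963) had 0.0970 FPKM (bounds 0.0286 to 0.165) in MDA-MB-231 and 1.18 FPKM (bounds 0.731 to 1.63) in LM2, a change of 0.99. The bounds of RORA stood only just apart, and those of RORB further apart. The plain ratios of 11.3 for RORA and 12.2 for RORB rest on FPKM near 0 in MDA-MB-231. These receptors, together with HNF4G, passed the filter on low values only through their level in LM2, so a higher value in LM2 was a condition of their being tested. Genes of low level were also called more often, 12.4% of the 2404 genes with a mean FPKM of 0.5 to 2 against 9.27% of all, and 2 of the 5 receptors in that range were called.

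The REV-ERB receptors NR1D1 and NR1D2, heme-binding repressors of the clock, were higher in LM2 as well but were not called. NR1D1 had 3.57 FPKM (bounds 0.415 to 6.73) in MDA-MB-231 and 6.59 FPKM (bounds 1.56 to 11.6) in LM2, a change of 0.73 with bounds that overlapped widely. THRA, which is read from the other strand, shares 18.0% of these exon bases. The study reports alignment with default settings and names no strand option, so reads of the overlap may come from either gene. NR1D2 had 23.2 FPKM (bounds 3.11 to 43.3) and 28.9 FPKM (bounds 3.24 to 54.5), a change of 0.30. All 4 ROR and REV-ERB members had higher values in LM2, with a median change of 0.86. For RORA and RORB, however, a higher value in LM2 was a condition of their being tested, and the REV-ERB changes were not called.

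**Figure D2:**
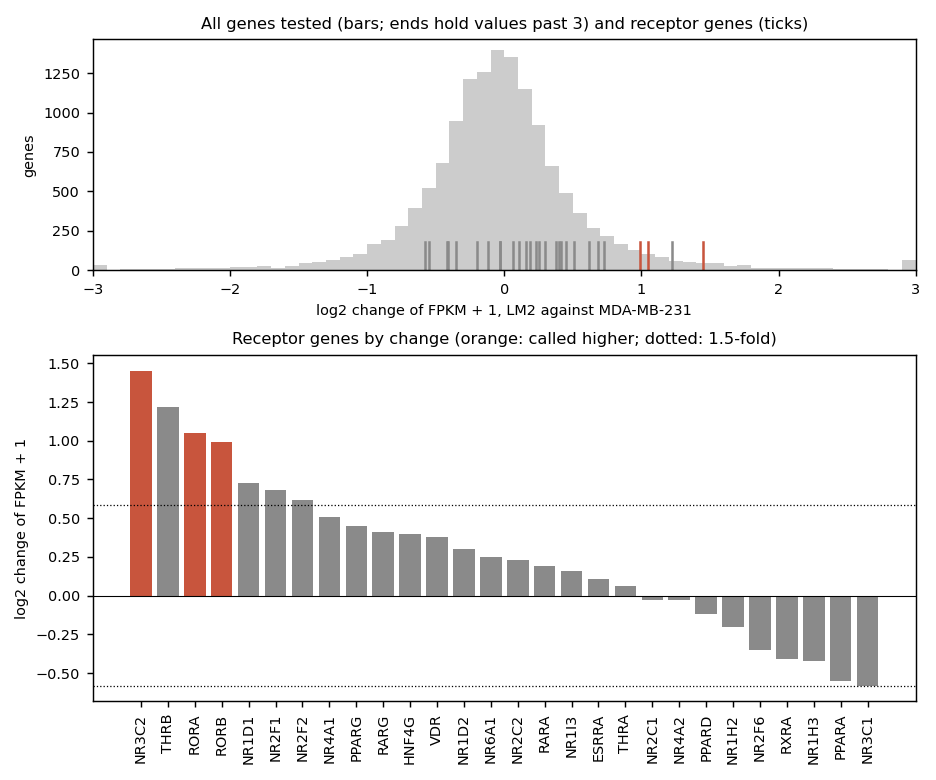
Above, a histogram of the log2 change of FPKM + 1 (LM2 over MDA-MB-231) of all 13911 genes tested, with the 28 receptors as ticks. Below, 1 bar per receptor in order of its change, called receptors in orange and the 1.5-fold limits dotted. NR3C2, RORA and RORB were called at 1.45, 1.05 and 0.99, and the lowest value was -0.58 for NR3C1.

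Of the 28 tested receptors 19 had higher values in LM2 and 9 lower values, with a median change of 0.24. Over all genes tested 45.5% had higher values and the median was -0.04. Among the 19, RORA, RORB and HNF4G passed the filter on low values only through LM2, so their direction was a condition of their being tested. No tested receptor passed it only through MDA-MB-231. In 7 of the 28 receptors FPKM + 1 differed at least 1.5-fold, all of them higher in LM2. Over all genes tested 22.1% passed this fold, 1434 higher and 1640 lower, so the number past the fold did not set the receptors apart. In 4 of the 7 the bounds overlapped, namely THRB, NR1D1, NR2F1 and NR2F2. The remaining 21 tested receptors were under the fold. The count depends on the value added to FPKM. With 0.1 added in place of 1, PPARA (-0.65) and NR3C1 (-0.60) also passed the fold, lower in LM2. HNF4G (0.91) and NR4A1 (0.71) then passed it as higher, and none of these was called.

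Of the thyroid hormone receptors, THRB had 0.895 FPKM (bounds 0.00243 to 1.79) in MDA-MB-231 and 3.43 FPKM (bounds 1.18 to 5.68) in LM2. Its change of 1.22 was second only to that of NR3C2 among tested receptors, but the bounds overlapped and it was not called. THRA, the other receptor of triiodothyronine, had 10.1 and 10.6 FPKM, a change of 0.06. THRA was thus the more abundant in both cell lines.

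The retinoic acid receptors RARA and RARG were somewhat higher in LM2 and not called. RARA had 11.6 FPKM in MDA-MB-231 and 13.4 FPKM in LM2, and 21.4% of its exon bases were shared with other annotated genes, mostly on the opposite strand. RARG had 10.97 and 14.85 FPKM, a change of 0.41. RARB, often silenced in breast cancer, had 0.109 FPKM (bounds 0 to 0.259) in MDA-MB-231 and 0.394 FPKM (bounds 0.171 to 0.616) in LM2, under the filter and with bounds that overlapped. The retinoid X receptor RXRA, the shared partner of many receptors, had a lower value in LM2, with 26.3 FPKM (bounds 18.98 to 33.6) and 19.5 FPKM (bounds 14.0 to 25.0), a change of -0.41 with bounds that overlapped.

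RXRB was listed at 0 in both cell lines, and this was not read as absence. It lies on chromosome 6 in a stretch from 29 to 34 Mb in which 136 of 180 protein-coding genes were listed at 0 in both cell lines, or 75.6%, against 12.6% of 19398 protein-coding genes over the genome. TUBB, a tubulin that dividing cells use, was also listed at 0 in both, as were SLC39A7 and RING1 beside RXRB. None of 47 genes starting from 34 to 37 Mb was listed at 0 in both. RXRG was near 0 in both, so RXRA was the only retinoid X receptor with a usable level in the table.

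The fatty acid receptors of the PPAR family were all above 1 FPKM and none was called. PPARG, the regulator of fat cell differentiation, had 30.9 FPKM (bounds 22.9 to 38.9) in MDA-MB-231 and 42.5 FPKM (bounds 31.1 to 53.9) in LM2, a change of 0.45. PPARD had 24.4 and 22.3 FPKM, a change of -0.12. PPARA, which drives fatty acid oxidation in liver, had 6.30 FPKM (bounds 2.73 to 9.87) and 3.99 FPKM (bounds 2.33 to 5.64), a change of -0.55. Relative to its partner RXRA, PPARG stood at a ratio of 1.18 in MDA-MB-231 against 2.18 in LM2, and the spans from opposite bounds, 0.683 to 2.05 and 1.25 to 3.85, overlapped.

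Among the sterol and xenobiotic sensors, the oxysterol receptors NR1H2 and NR1H3 (LXRβ and LXRα) were lower in LM2 and not called, with 37.7 and 32.7 FPKM for NR1H2 and 10.8 and 7.79 FPKM for NR1H3. The vitamin D receptor VDR had 5.598 FPKM in MDA-MB-231 and 7.60 FPKM in LM2, a change of 0.38. NR1I3, the xenobiotic sensor CAR, had 1.83 and 2.18 FPKM with lower bounds of 0, and 20.4% of its exon bases lay in TOMM40L on the opposite strand. NAPSA on the opposite strand likewise covered 22.1% of the exon bases of NR1H2. The bile acid receptor NR1H4 and the pregnane X receptor NR1I2 were under 0.1 FPKM in both.

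The orphan COUP-TF and testicular receptors were led by NR2F2, whose change of 0.62 passed the fold with bounds that overlapped between 69.7 and 82.9 FPKM. NR2F1 had 2.62 FPKM (bounds 0.658 to 4.58) in MDA-MB-231 and 4.80 FPKM (bounds 1.95 to 7.66) in LM2, a change of 0.68. NR2F6 had 8.57 and 6.49 FPKM, a change of -0.35. NR2C1 had 15.8 and 15.5 FPKM, and NR2C2 had 14.3 and 16.9 FPKM, but 61.9% of the exon bases of NR2C2 were shared, nearly all with MRPS25 on the opposite strand.

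The NR4A receptors respond within minutes to many stimuli without a known hormone. NR4A1 had 1.74 FPKM (bounds 0.779 to 2.71) in MDA-MB-231 and 2.91 FPKM (bounds 1.72 to 4.09) in LM2, a change of 0.51. NR4A2 had 1.42 and 1.37 FPKM, and NR4A3 had 0.120 and 0.109 FPKM. The germ cell factor NR6A1 had 0.649 and 0.962 FPKM, and HNF4G had 0.405 and 0.848 FPKM with overlapping bounds. HNF4A, the liver and gut regulator, had 0.111 and 0.104 FPKM.

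In all, 18 receptors were under the filter. ESR2, ESRRG, RARB, HNF4A and NR4A3 reached 0.1 FPKM in at least 1 cell line, and the other 13 were under 0.1 FPKM in both, among them the steroidogenic factor NR5A1, the liver receptor homolog NR5A2, the neural receptor NR2E1, the retinal receptor NR2E3 and NR0B2, which lacks a DNA-binding domain. RXRB and NR0B1 were listed at 0 in both, and RXRG, NR1I2, NR2E1 and NR5A1 in a single cell line.

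**Figure D3:**
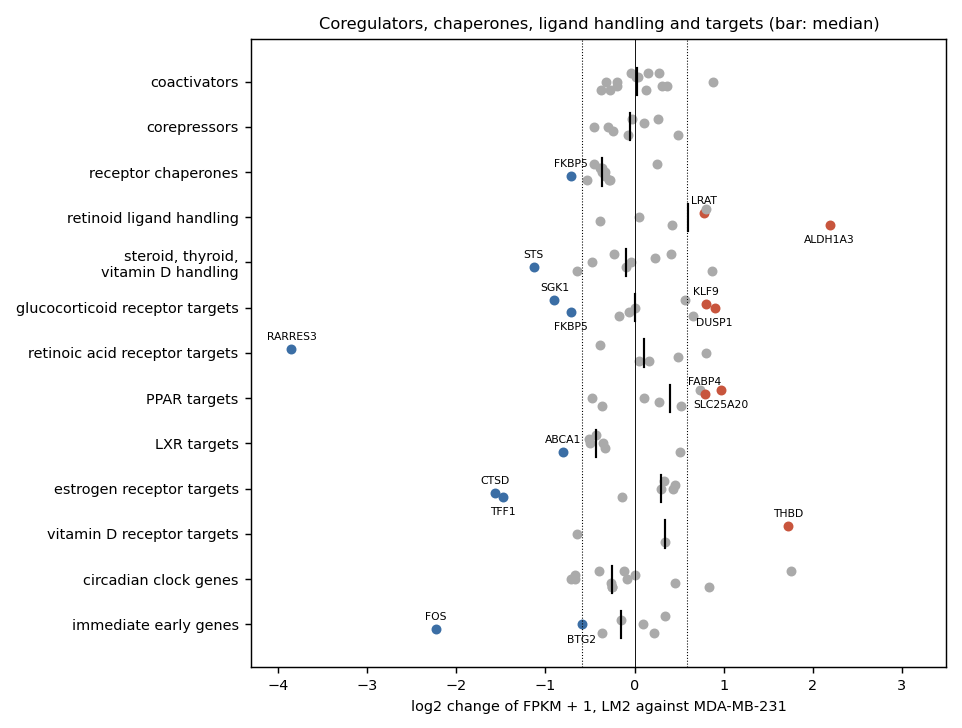
Log2 change of FPKM + 1 (LM2 over MDA-MB-231) for the tested genes of 13 lists around the receptors, each point 1 gene, called genes in colour, black bars the medians and dotted lines the 1.5-fold limits. ALDH1A3 stood highest at 2.19 and RARRES3 lowest at -3.85.

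The genes around the receptors were described by 13 lists with 131 distinct genes, of which 101 were tested, 7 called higher and 9 called lower, 15.8% in either direction against 9.27% of all genes tested. The lists hold known targets and partners chosen with earlier results of these data known, so this share is a description.

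The coregulators held none of these calls. The 14 coactivators had a median change of 0.03. PPARGC1A, which coactivates PPARs and estrogen-related receptors, had 0.648 FPKM in MDA-MB-231 and 2.04 FPKM in LM2, a change of 0.88 with bounds that overlapped, and NCOA1 had 8.01 and 5.91 FPKM. The 8 corepressors had a median of -0.05. NRIP1 was at 3.38 and 5.16 FPKM, TBL1X at 15.3 and 10.9 FPKM, neither called.

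Receptor chaperones were lower in LM2 in 10 of 11 cases, with a median of -0.36, but 1 of the 11 was called. FKBP5, a cochaperone that lowers glucocorticoid receptor affinity and is itself a glucocorticoid target, had 30.5 FPKM (bounds 23.03 to 38.0) in MDA-MB-231 and 18.3 FPKM (bounds 13.6 to 22.97) in LM2, a change of -0.71. The bounds stood just apart. HSP90AB1, the abundant chaperone of steroid receptors, had 1175 and 812 FPKM, a change of -0.53, and was not called. Tested neighbours within 3 Mb had a median change of -0.33 around FKBP5 and -0.46 around HSP90AB1. Around HSP90AA1, which changed by -0.39, their median was -0.09. The part of these surroundings in the chaperone values was not tested.

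Ligand handling held calls in both directions. STS, which releases steroids from their sulfates, was called lower with 8.67 and 3.41 FPKM, and 8 tested genes within 3 Mb of it had a median change of -1.14. It was the call among 9 of 18 genes tested for steroid, thyroid hormone and vitamin D handling, whose median was -0.09. Of 13 genes of retinoid handling, 6 were tested and 2 called higher, with a median of 0.60. ALDH1A3, which makes retinoic acid, had 5.81 FPKM (bounds 1.62 to 9.99) and 30.1 FPKM (bounds 10.97 to 49.1), a change of 2.19. Of its exon bases 33.3% overlapped other genes, nearly all an antisense gene, and its 16 tested neighbours within 3 Mb had a median change of 1.13. LRAT, which stores retinol as esters, was called higher with 0.259 and 1.16 FPKM, but it passed the filter on low values only through LM2, so a higher value there was a condition of its being tested.

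The target lists held calls in both directions. Of 9 glucocorticoid receptor targets tested, DUSP1 (22.3 and 42.3 FPKM) and KLF9 (1.83 and 3.91 FPKM) were called higher and SGK1 (17.8 and 9.04 FPKM) and FKBP5 lower, with a median of 0.00. Of 6 retinoic acid receptor targets, RARRES3 was called lower with 88.4 FPKM (bounds 67.1 to 110) in MDA-MB-231 and 5.19 FPKM (bounds 3.27 to 7.11) in LM2, a change of -3.85, while the median of the list was 0.10. Of 8 PPAR targets, the carnitine carrier SLC25A20 (3.48 and 7.76 FPKM) and the fatty acid binding protein FABP4 (0.132 and 0.960 FPKM) were called higher, with a median of 0.40. FABP4 passed the filter on low values only through LM2.

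Of 7 LXR targets 6 had lower values in LM2, with a median of -0.43. A link to the values of the LXR genes, neither of which was called, was not tested. The cholesterol exporter ABCA1 was the member called, with 16.3 FPKM (bounds 12.1 to 20.5) in MDA-MB-231 and 8.93 FPKM (bounds 6.61 to 11.3) in LM2. Of 7 estrogen receptor targets, CTSD (921 and 309 FPKM) and TFF1 (2.38 and 0.210 FPKM) were called lower in cell lines whose ESR1 was near 0, although the median of the list was 0.30. Of the exon bases of CTSD, 48.2% were shared with other genes. Of 3 vitamin D receptor targets tested, THBD (7.53 and 27.2 FPKM) was called higher, with a median of 0.34. Values were higher in LM2 for 2 of the 3. CYP24A1 had a lower value (1.68 and 0.707 FPKM, a change of -0.65), with bounds that overlapped.

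Clock genes, which include the partners of the ROR and REV-ERB receptors, had a median of -0.25 and no call among 13 tested. Of these, 4 had higher values in LM2 and 9 lower values. BHLHE41, a clock repressor, had 2.04 and 9.28 FPKM, a change of 1.76, with bounds that overlapped. ARNTL, a gene that RORs activate and REV-ERBs repress, had 3.03 and 6.20 FPKM, a change of 0.84 that was not called. A link to the levels of these receptors was not tested. Immediate early genes, the class to which the NR4A genes belong, had 2 called lower of 7 tested and a median of -0.15. FOS had 17.6 FPKM in MDA-MB-231 and 2.99 FPKM in LM2, a change of -2.23, and BTG2 had 0.867 and 0.243 FPKM. BTG2, like TFF1 above, passed the filter only through MDA-MB-231.

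**Figure D4:**
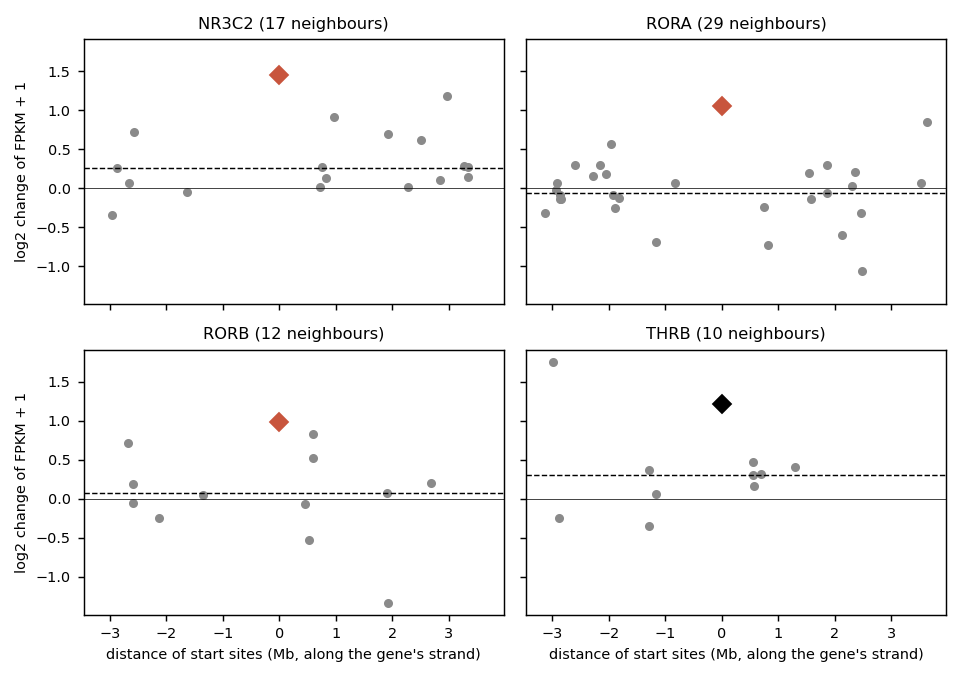
Log2 change of FPKM + 1 (LM2 over MDA-MB-231) of tested protein-coding genes against the distance of their start in Mb from that of NR3C2, RORA, RORB or THRB. Diamonds mark the receptor (orange where called) and dashed lines the median of its neighbours. NR3C2 stood 1.19 above the median of its 17 neighbours.

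The neighbourhoods of the receptors on the chromosomes were compared with the receptors themselves. The 17 tested protein-coding genes within 3 Mb of NR3C2 had a median change of 0.26, 15 of them with higher values and 2 called higher, and NR3C2 itself stood 1.19 above that median. The 10 neighbours of THRB had a median of 0.31, with THRB 0.92 above it. The 29 neighbours of RORA had a median of -0.06, and the 12 neighbours of RORB a median of 0.07, so these receptors stood 1.11 and 0.92 above their surroundings. NR3C1 stood 0.61 below its 45 neighbours, whose median was 0.02.

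The remaining receptors ranged from near their surroundings to well apart from them. All 5 neighbours of NR2F2 had higher values, with a median of 0.95, above the 0.62 of NR2F2. The 79 neighbours of RXRA had a median of -0.50, 17 of them called lower and none higher, close to the -0.41 of RXRA. HNF4G, at 0.40, lay among 14 neighbours with a median of 0.46. By contrast NR6A1, at 0.25, lay among 41 neighbours with a median of -0.41. NR1D1 stood 0.71 above its 83 neighbours, and NR4A1 and NR2F1 stood 0.47 and 0.45 above theirs. The difference of PPARA from the median of its 21 neighbours was -0.62. Along chromosome 3, PPARG, NR2C2, NR1D2 and THRB all had higher values in LM2, where 693 other genes of that chromosome had a median of 0.06. NR1D2, THRB and RARB lie within 1.65 Mb of that chromosome. In this span and the 3 Mb on each side of it, 10 of the 12 other genes tested had higher values in LM2, with a median of 0.37, and SLC4A7 was called higher (7.57 and 27.9 FPKM). On chromosome 17 all 3 tested receptors (THRA, NR1D1 and RARA) had higher values, while 713 other genes had a median of -0.05. On chromosome 9, 2 of 3 were higher, with a median of -0.20 for other genes. On chromosome 19, 0 of 2 were higher, with a median of -0.11. The part of these surroundings in the receptors' values was not tested.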

How the data were processed

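RNA-seq libraries of MDA-MB-231 and LM2-4175 (2 each) were aligned to hg19 with TopHat2 and quantified with Cuffdiff, per the submitters' processing notes. The deposited table holds FPKM values that the authors computed per gene of GENCODE 19, with 1 pooled value per cell line, a status and both bounds. Pooling thus preceded deposit, the table gives no depth (the study's own read numbers were not used here), and the planned limma fit could not be run.

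The receptors and gene lists were chosen with earlier results of these data known. Changes were log2 ratios of FPKM + 1, LM2 over MDA-MB-231, computed with Python 3.11.15, NumPy 2.4.6 and pandas 2.3.3, and drawn with Matplotlib 3.10.9. Genes needed a mean FPKM of at least 0.5 and status OK in both cell lines, which left 13911 genes. A call needed a fold of 1.5 and bounds that did not overlap. It compares the pooled libraries, not the conditions. The calling step was tested on simulated data. The simulated errors were taken from the authors' bounds, so they could not show how calls behave where the bounds miss the spread between libraries. The upper bound lay a median of 38.6% above the FPKM in MDA-MB-231 and 38.1% in LM2.

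Every receptor with a mean FPKM of at least 0.5 was named. Lower receptors were given by count, and with values where they reached 0.1 FPKM. Of each list every called gene was named, up to the 4 with the largest change, or else the 2 tested genes with the largest change. Genes named outside this rule (such as the retinoid X receptors, ESR1, PGR, ERBB2, VIM, CDH1, PTPRC, CD3E, HSP90AB1, neighbours and genes beside RXRB) were chosen after their values were seen. ESRRB, NR1H4, NR1I2 and other receptors under 0.1 FPKM were named for their roles.

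The GENCODE 44 annotation of GRCh37 gave coordinates, neighbours and exon overlaps, and in it 55535 of the 57815 gene identifiers were found and 2280 were not. RefSeq promoters (GRCh38.p14) were placed on GRCh37 by an exact match. A planned comparison of receptor proteins was not run, and some list genes are not reported here. The alternatives were a pseudocount of 0.1, no filter or a mean of at least 1 FPKM, a fold of 2, the fold alone, the bounds alone, scaling to equal sums (as TPM) and scaling by the median ratio.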

Additional observations from a re-analysis of the deposited data

How the results depend on the processing

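NR3C2 was called higher under each of the 8 alternatives, and no receptor was called lower under any of them. With the fold of 1.5 alone, 7 receptors were called higher (NR1D1, NR2F1, NR2F2 and THRB in addition), as were 1434 of all genes, with 1640 lower, and 14 list genes were called higher. With a mean of at least 1 FPKM 1 receptor was called, NR3C2, since RORA and RORB were then not tested, and the list genes called were 5 higher and 8 lower, without LRAT, FABP4 and BTG2. With a fold of 2, RORB was no longer called, 403 of all genes were called lower, and 2 list genes were called higher and 5 lower. Scaling multiplied LM2 by 1.058 (equal sums, as TPM) or 1.046 (median ratio) and turned the sign of NR2C1 and NR4A2 only, among the tested receptors. It raised the share of calls that were higher in LM2 from 50.3% to 57.7% and 56.1%. No paired analysis was possible because the table has 1 pooled value per cell line, and for the same reason no replicate could be left out. Depth was not in the table, and the precision of a low FPKM was read here from the bounds.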
